A study of Homo sapiens with 25 samples.

Results

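The genes described here are 37 of the 58302 genes in the count files. They were chosen by name: 25 belong to glucose uptake, glycolysis and the handling of its end products, and 12 to the response to low oxygen, as its regulators, sensors and targets. RNA had been sequenced from hiF-T cells, a line of fibroblast-like cells derived from BJ skin fibroblasts in which hTERT, the catalytic subunit of telomerase, can be induced; the genotype is given as wild type in all groups. In the sort set the cells carried a dye and were either left ungated or collected at low, midlow, midhigh or high dye accumulation, giving 5 groups of 4 biological replicates, all without drug. The series describes this as a sort by proliferation status, but the labels do not say which dye level belongs to slowly dividing cells. In the drug set, replicate 1 held a library each of DMSO, DOT1L inhibition and LSD1 inhibition, and replicate 2 a library each of no drug and LSD1 inhibition. DOT1L and LSD1 are enzymes that add and remove methyl groups on histone H3; compounds, doses, times and whether hTERT was induced are not given in the sources used here. All groups come from a single engineered line, so they show nothing about other fibroblasts.

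Glycolysis splits glucose into pyruvate and yields ATP without oxygen. Glucose enters through SLC2A transporters and is trapped by hexokinases; the phosphofructokinases set the committed step, under control of the PFKFB enzymes, and lactate dehydrogenase turns pyruvate into lactate, which SLC16A carriers export. The oxygen response rests on the HIF alpha subunits HIF1A and EPAS1 (HIF-2 alpha). With oxygen present, the prolyl hydroxylases EGLN1 and EGLN3 mark these proteins for destruction through VHL; when oxygen is low they pair with ARNT and bind DNA at a short core sequence. Many glycolytic genes are HIF1A targets, and so are VEGFA, which drives vessel growth, the carbonic anhydrases CA9 and CA12, and the mitophagy protein BNIP3. HIF alpha is controlled mainly at the protein level, which RNA counts do not measure.

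The core of the HIF binding site was searched in the promoter windows of the RefSeq table (GRCh38.p14; 300 bases, from 250 before to 50 after a start site) as ACGTG or GCGTG on either strand, that is also as CACGT or CACGC. The same letters lie in CACGTG, the E-box of MYC-type factors, which counts here as a match on each strand. For 33 of the 37 genes the table held 61 windows, and 41 of them (67.2%) had a match, against 48.4% of all 35116 windows. Windows of a gene can overlap and are not separate units: HK1 and PFKM had 7 each. All 35116 windows belonged to 27305 genes, and shares per gene were not computed. The windows of these genes were also richer in G and C, with a median of 68.0% against 58.7%, and the part of base composition in the difference was not tested. On the hypoxia side 10 of 12 windows had a match (83.3%), and on the glycolysis side 31 of 49 (63.3%). SLC2A3, SLC16A1, VEGFA and NDRG1 had no window. The windows of 4 genes that the results turn on are printed 5′ to 3′ with each match in capitals: EPAS1 for the widest range between gates (chr2:46297157-46297456, plus strand), ENO1 (chr1:8878637-8878936, minus strand) and the first of 2 LDHA windows (chr11:18394313-18394612, plus strand) for lower counts at high dye, and ENO2 (chr12:6914330-6914629, plus strand) for higher counts under LSD1 inhibition.
EPAS1: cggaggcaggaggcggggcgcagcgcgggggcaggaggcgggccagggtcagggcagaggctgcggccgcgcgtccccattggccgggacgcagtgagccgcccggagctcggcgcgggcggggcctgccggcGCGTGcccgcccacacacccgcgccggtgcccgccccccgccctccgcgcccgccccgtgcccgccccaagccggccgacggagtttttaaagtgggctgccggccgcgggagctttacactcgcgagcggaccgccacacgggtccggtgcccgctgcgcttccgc
ENO1: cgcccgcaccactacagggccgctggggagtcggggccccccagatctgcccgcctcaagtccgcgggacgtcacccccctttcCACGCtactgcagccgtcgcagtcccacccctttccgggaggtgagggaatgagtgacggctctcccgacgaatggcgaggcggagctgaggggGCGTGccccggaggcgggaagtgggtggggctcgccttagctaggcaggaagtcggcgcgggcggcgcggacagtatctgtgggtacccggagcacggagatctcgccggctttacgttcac
LDHA: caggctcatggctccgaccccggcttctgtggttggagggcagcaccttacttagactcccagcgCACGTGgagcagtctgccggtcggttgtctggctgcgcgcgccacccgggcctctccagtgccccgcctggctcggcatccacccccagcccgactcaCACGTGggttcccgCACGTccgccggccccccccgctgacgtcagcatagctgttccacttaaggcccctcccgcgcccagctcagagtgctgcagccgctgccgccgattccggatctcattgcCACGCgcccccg
ENO2: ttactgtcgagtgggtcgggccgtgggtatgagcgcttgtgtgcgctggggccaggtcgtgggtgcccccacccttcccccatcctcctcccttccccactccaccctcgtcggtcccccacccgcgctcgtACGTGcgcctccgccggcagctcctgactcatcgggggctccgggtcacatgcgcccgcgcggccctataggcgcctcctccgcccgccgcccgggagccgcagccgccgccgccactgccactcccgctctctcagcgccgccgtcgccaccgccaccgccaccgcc
LDHA had the most matches of these 4 windows: 6, of which CACGTG gave 2 at each of its 2 places. ENO1 had 2 matches, EPAS1 and ENO2 had 1 each. A match in a window is a description of sequence and shows no binding.

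Sequencing depth was similar throughout, with 15015039 to 20030093 gene counts per library. Counts of any 2 libraries in a group differed by more than sampling noise (chi-square per degree of freedom 7.4 or more). Fibroblast markers were present in all 25 libraries. Of 12, 9 were at 1 count per 1e+06 gene counts (CPM, scaled by TMM) or more in every library, while DCN, LUM and THY1 fell below that in some. The 12 summed to 13450 to 15830 CPM in low dye and 15440 to 18600 CPM in high dye cells. Of the markers of other cell types, PECAM1, CDH5 and VWF (endothelial), KRT5, KRT14, KRT1 and CDH1 (epithelial), CD68, CD14 and CD3E (immune), TYR and DCT (melanocyte), NANOG, LIN28A, TDGF1 and DPPA4 (pluripotent) and 4 of 4 erythroid genes stayed under 1 CPM in every library. The other members of these lists did not: KRT10 had 36.3 to 51.3 CPM, KDR 0.427 to 4.44, POU5F1 1.34 to 3.59, EPCAM 0.172 to 2.96, PMEL 0 to 1.84, MLANA 0.245 to 1.29 and PTPRC 0 to 1.205 CPM. In bulk RNA, fewer cells of a type and less RNA per cell cannot be told apart.

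Per kilobase of annotated exon, GAPDH was the most abundant of the 37 genes in ungated cells, at 696 ± 71.2 CPM per kb (SD, n = 4). ENO1 followed at 400.1 ± 30.5, PKM at 361 ± 20.8, LDHA at 282 ± 20.7 and LDHB at 218 ± 2.81 CPM per kb. ENO1 and PKM lay within their combined spread, as did LDHB and ALDOA (194 ± 22.7 CPM per kb). The length is that of all annotated exons of a gene together, 8571 bases for PKM and 2981 for GAPDH, so the order depends on the annotation. Before division by length PKM was above GAPDH, with replicate means over the sort groups of at least 2889 CPM against at most 2183 CPM. HIF1A was the most abundant gene of the hypoxia side at 133 ± 20.1 CPM per kb, between the enzymes TPI1 (165 ± 7.09) and PFKP (92.6 ± 16.2), and EPAS1 was far lower and more variable at 14.5 ± 7.89. Some paralogs were scarce beside their main form: ALDOC reached 0.881 ± 0.218 and ENO2 6.80 ± 1.08 CPM per kb, and SLC2A3 7.53 ± 0.881 against 51.9 ± 9.64 for SLC2A1. CA9, EGLN3 and PDK4 had 0 to 3 counts in each of the 25 libraries and were not tested. A count of 0 would allow up to 3 counts, or 0.15 to 0.2 CPM, counting error only. The other 34 genes passed the filter on low counts in both sets.

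The ends of the dye range were compared first, to ask which of the genes differ between low and high dye cells. In high dye cells 4 genes were higher, namely the glucose transporter SLC2A3, the phosphofructokinase PFKM, the aldolase ALDOC and VEGFA, and 4 were lower, namely the phosphofructokinase PFKP, the regulator PFKFB3, the enolase ENO1 and LDHA. The remaining 26 of 34 did not pass edgeR's quasi-likelihood test at an adjusted p of 0.05. Of the 8 calls, 7 were on the glycolysis side (3 higher and 4 lower of 24), and the paralogs PFKM and PFKP of a single step went opposite ways. Over all 14592 genes tested 17.7% were called, 9.39% higher and 8.35% lower, so the 8 of 34 are close to the background. DESeq2 called 9 of the 34, these 8 and HIF1A, and 20.1% of all genes. The median log2 fold change of the 34 was 0.086, against 0.008 for all genes. Along with these genes, high dye cells had lower counts for 16 of 20 genes of DNA replication and mitosis (median log2 fold change -0.86), and 16 of 18 p53 targets were higher (median 1.20). MKI67, a marker of cycling cells, was lower by log2 -0.87 ± 0.23 (SE) and CDKN1A, a cell cycle inhibitor, higher by 2.21 ± 0.30. Among the fibroblast markers COL1A2 (0.65 ± 0.16), COL3A1 (1.36 ± 0.45) and LUM (2.02 ± 0.60) were called higher, and the others were not called. With the replicate number as a block further ones were higher, and VIM was lower (-0.25 ± 0.095 in the fit without it). KDR and PTPRC, low-count endothelial and immune markers, were higher with the replicate number as a block only (edgeR adjusted p = 0.042 and 0.034). The 4 endothelial markers summed to 0.920 to 3.82 CPM in low dye and 1.32 to 5.14 CPM in high dye libraries, and the 4 immune markers to 0.153 to 0.736 and 0.539 to 1.38 CPM. The part of cell cycle state and of these markers in the changes of the glycolysis and hypoxia genes was not tested.

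**Figure D1:**
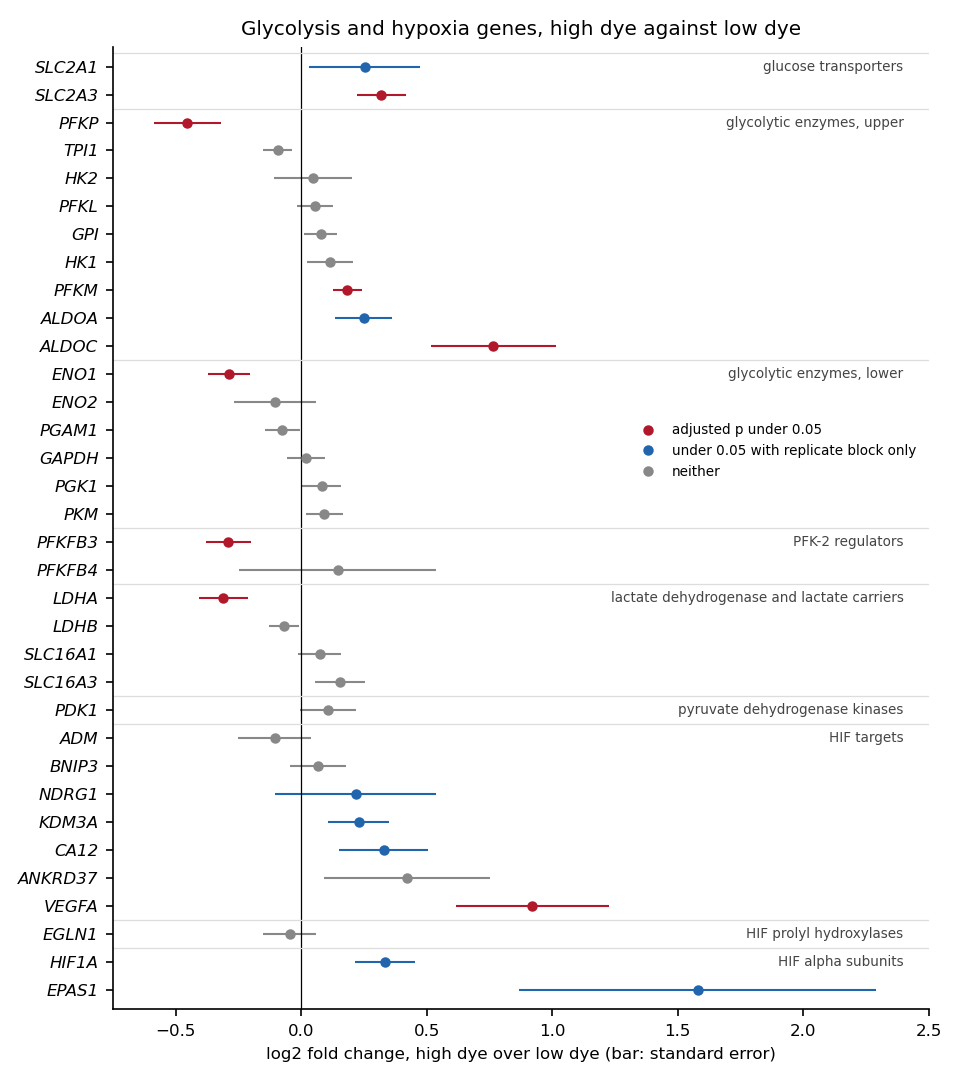
Log2 fold change of high dye over low dye (horizontal axis, edgeR, bars are standard errors) for the 34 genes that passed the filter, grouped by role. Red points passed an adjusted p of 0.05 (4 higher, 4 lower), blue points passed it only with the replicate number as a block, and grey points passed in neither fit; EPAS1 has both the largest value and the widest error bar.

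Replicate numbers tie the sort libraries together, so values with the replicate number as a block stand beside those without. With the block 15 of the 34 genes were called, 11 higher and 4 lower, against 37.2% of all genes. The 7 that joined were all higher: SLC2A1, ALDOA, CA12, NDRG1, KDM3A, HIF1A and EPAS1. On the hypoxia side the edgeR count thus went from 1 of 10 to 6 of 10, all higher, with a median log2 fold change of 0.28. By direction alone, 15 genes were higher and 4 lower in 4 of 4 replicate pairs, and 46.4% of all genes kept a direction in every pair. In 5 genes the high and low dye groups did not overlap (HIF1A higher; PFKP, ENO1, PFKFB3 and LDHA lower), a smaller share than the 19% of all genes.

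The main form of glucose transporter, SLC2A1 (chr1:42925375-42959176), stood at 208, 146, 301 and 255 CPM in low dye replicates 1 to 4 and at 260, 205, 329 and 289 CPM in high dye. Each high dye library was above its own low dye partner, but the groups overlapped because replicates 3 and 4 were high throughout. The log2 fold change was 0.25 ± 0.22 (edgeR adjusted p = 0.46) and, with the block, 0.28 ± 0.070 (adjusted p = 0.0037). SLC2A3 (chr12:7919230-7936275), a transporter with high affinity for glucose, went from 41.3, 46.9, 44.7 and 43.0 CPM to 59.6, 51.0, 62.5 and 46.4 CPM. It was 1.25-fold higher (log2 0.32 ± 0.099, edgeR adjusted p = 0.032), and the groups overlapped only through high dye replicate 4.

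Among the 9 enzymes of upper glycolysis, PFKP (chr10:3066333-3137712), the platelet form of phosphofructokinase, fell most. It stood at 550, 563, 580 and 513 CPM in low dye and 379, 430, 320 and 482 CPM in high dye libraries, without overlap. That is a 1.37-fold decrease (log2 -0.45 ± 0.13, edgeR adjusted p = 0.023). The muscle form PFKM (chr12:48105139-48146404) rose slightly, from 79.4, 91.7, 79.9 and 82.0 CPM to 91.5, 92.2, 95.6 and 98.4 CPM (log2 0.18 ± 0.058, edgeR adjusted p = 0.036), and the groups just overlapped. The liver form PFKL gave a log2 fold change of 0.054 ± 0.070 and was not called. PFKM shares 628 exon bases with SENP1 on the opposite strand, and the library kit named in the labels does not mark strand, so reads of the overlap cannot be told apart.

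ALDOC (chr17:28573115-28577264), the brain form of aldolase, is a low-count gene here, with 24 to 66 counts per sort library. It went from 2.45, 1.22, 1.54 and 1.90 CPM to 3.27, 2.91, 3.96 and 1.90 CPM, a 1.7-fold increase (log2 0.77 ± 0.25, edgeR adjusted p = 0.041). Its replicate 4 pair did not move. The abundant form ALDOA went from 699, 592, 740 and 759 CPM to 829, 686, 921 and 880 CPM. Each ALDOA pair was higher, and the log2 fold change of 0.25 passed only with the block (adjusted p = 0.14 without it, 7e-04 with it, both edgeR). HK1, HK2, GPI and TPI1, which serve the first steps and the triose interconversion, had log2 fold changes of -0.094 to 0.11 and passed in neither fit.

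In lower glycolysis only ENO1 (chr1:8861000-8879250), the main enolase, was called. Its levels were 2290, 2422, 2243 and 2366 CPM in low dye and 1750, 2023, 1691 and 2167 CPM in high dye libraries, with no overlap (1.22-fold lower, log2 -0.29 ± 0.084, edgeR adjusted p = 0.023). The neuronal enolase ENO2 did not follow it, with a log2 fold change of -0.10 ± 0.16. GAPDH, PGK1, PGAM1 and PKM, the other enzymes of the ATP-yielding stage, lay between -0.077 and 0.091 and passed in neither fit. For GAPDH the counts of 65 pseudogenes named after it came to 2.01% of its own, and for PGAM1 those of 13 pseudogenes to 5.17%, so small differences of these genes are uncertain.

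PFKFB3 (chr10:6144934-6254644) makes the fructose bisphosphate that switches phosphofructokinase on. It was lower in high dye cells, at 66.3, 61.8, 65.0 and 69.5 CPM against 82.8, 78.3, 87.2 and 73.1 CPM in low dye, again without overlap (log2 -0.29 ± 0.091, edgeR adjusted p = 0.034). Its paralog PFKFB4 differed far more between replicate numbers than between gates and had a log2 fold change of 0.14 ± 0.39. LDHA (chr11:18394388-18408425), which turns pyruvate into lactate, fell from 1728, 1962, 1744 and 1839 CPM to 1199, 1666, 1332 and 1662 CPM. Every high dye library was below every low dye library (1.24-fold lower, log2 -0.31 ± 0.098, edgeR adjusted p = 0.033). LDHB and the lactate carriers SLC16A1 and SLC16A3 were not called in either fit, at -0.070, 0.073 and 0.15. PDK1, a mitochondrial kinase that inhibits pyruvate dehydrogenase, was not called either (log2 0.10 ± 0.11).

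On the hypoxia side of the chosen genes, VEGFA (chr6:43770184-43786487) was the only gene that edgeR called without the block. DESeq2, also without it, called VEGFA and HIF1A. HIF targets outside the chosen genes are given further below. Low dye libraries held 49.7, 57.2, 27.4 and 34.7 CPM, and high dye libraries 122, 80.6, 72.5 and 44.9 CPM. All 4 pairs were higher, most in replicates 1 and 3, and the groups overlapped through high dye replicate 4 (1.9-fold, log2 0.92 ± 0.30, edgeR adjusted p = 0.043). CA12, a membrane carbonic anhydrase, had 51.2, 66.2, 44.7 and 44.6 CPM in low dye and 63.4, 83.2, 59.6 and 53.4 CPM in high dye. The histone demethylase KDM3A had 45.8, 36.9, 36.5 and 35.6 CPM in low dye and 51.4, 48.0, 46.1 and 35.8 CPM in high dye, and the stress gene NDRG1 46.5, 30.6, 29.3 and 20.05 CPM and 54.0, 38.1, 33.2 and 21.5 CPM. All 3 genes were higher in every pair while their groups overlapped. These 3 passed only with the block: CA12 at log2 0.33 (adjusted p = 0.001), KDM3A at 0.23 (0.019) and NDRG1 at 0.21 (0.012), all edgeR. ADM, a vasodilator peptide, BNIP3 and ANKRD37 passed in neither fit, and ADM was lower in 3 of 4 pairs. ANKRD37 shares 909 exon bases with UFSP2 on the opposite strand and had 11 to 45 counts per sort library, so its values are uncertain. EGLN1, the main oxygen-sensing hydroxylase and itself a HIF target, was at log2 -0.047 ± 0.11.

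The 2 alpha subunits differed in range. HIF1A (chr14:61695513-61748259) stood at 524, 554, 606 and 625 CPM in low dye and 695, 667, 841 and 705 CPM in high dye cells. The groups did not overlap, yet the adjusted p was 0.064 without the block (log2 0.33 ± 0.12) and 3e-04 with it (0.33 ± 0.062, both edgeR). DESeq2 called HIF1A without the block. EPAS1 (chr2:46293667-46386703) stood at 23.0, 15.9, 121 and 116 CPM in low dye and 166, 99.7, 359 and 197 CPM in high dye. Replicates 1 and 2 thus began from a level several times under that of replicates 3 and 4, and the high dye libraries of the first pair overlapped the low dye libraries of the second. The mean was 2.98-fold higher. The log2 fold change was 1.58 ± 0.71 without the block (edgeR adjusted p = 0.13) and 1.91 ± 0.24 with it (adjusted p = 4.5e-06), the largest among the 34 genes in both fits.

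The calls without the block moved with single libraries. Leaving out high dye replicate 1 or high dye replicate 3 left 0 of the 34 genes called, low dye replicate 3 or 4 left 2, low dye replicate 1 or 2 left 4, and high dye replicate 2 left 5. Without high dye replicate 4, which differed least from its low dye partner in EPAS1, ALDOC, PFKP and ENO1, 7 were called. A fit of the 8 compared libraries alone called 2, PFKP and PFKFB3. With no filter on low counts SLC2A3, PFKM, ALDOC and PFKFB3 were not called, and HIF1A and EPAS1 were.

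Across the 4 gates, a straight line over their order (equal steps assumed, since no dye values are given) was called for 9 of 34 genes, against 26.2% of all genes, and with the block for 18 of 34, against 43.8%. The 5 that rose per step were SLC2A3 (log2 0.10 ± 0.029), PFKM (0.066 ± 0.018), ALDOC (0.23 ± 0.083), VEGFA (0.32 ± 0.090) and HIF1A (0.12 ± 0.035). The 4 that fell were PFKP (-0.16 ± 0.035), ENO1 (-0.10 ± 0.026), PFKFB3 (-0.095 ± 0.024) and LDHA (-0.11 ± 0.031). These are the 8 genes that edgeR called between the outer gates, with HIF1A added, and the tests share libraries. For the trend DESeq2 called 10 of 34, ALDOA besides these 9, against 28.5% of all genes. The 9 that joined with the block all rose: SLC2A1 (0.10 per step), HK1 (0.042), ALDOA (0.094), PKM (0.034), SLC16A3 (0.062), CA12 (0.11), NDRG1 (0.076), KDM3A (0.082) and EPAS1, with edgeR adjusted p up to 0.047. Of these, HK1, PKM and SLC16A3 were not called between the outer gates in either fit. The trend of EPAS1 was 0.56 ± 0.22 per step without the block (edgeR adjusted p = 0.063) and 0.67 ± 0.074 with it (9.4e-07). Without the block, leaving out any 1 of the 16 libraries left 6 to 11 of the 34 called, with 6 in the fits without high dye replicate 1 or high dye replicate 3. Over all genes these fits called 2514 to 4149.

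EPAS1 was the only 1 of the 34 genes whose level went up at each gate step in all 4 replicate numbers, a pattern of strict order that 2.01% of all genes had in either direction. In replicate 1 it passed from 23.0 to 32.0, 92.7 and 166 CPM, and in replicate 2 from 15.9 to 21.9, 51.5 and 99.7 CPM. Replicate 3 went from 121 to 152, 293 and 359 CPM, and replicate 4 from 116 to 132, 177 and 197 CPM. By ratio, the step between midlow and midhigh dye was the largest in all 4. VEGFA went up at each step in 3 replicate numbers. In 2 replicate numbers SLC2A3, PFKM, ALDOC, KDM3A and HIF1A went up at each step, and PFKP, PFKFB3 and LDHA went down.

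**Figure D2:**
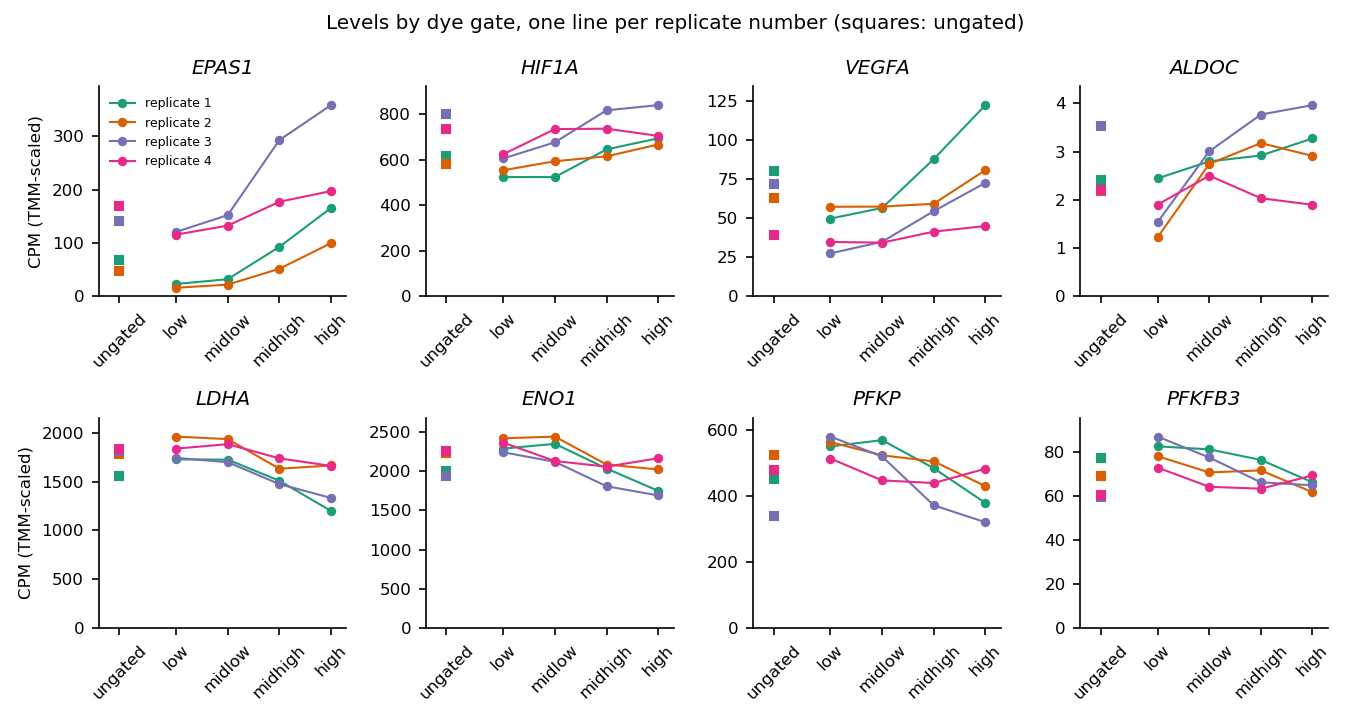
TMM-scaled CPM (vertical axes, from 0) of 8 genes in the 4 dye gates, joined by a line for each replicate number, with ungated cells as squares on the left. EPAS1, HIF1A and VEGFA climb towards high dye from different starting levels, while LDHA, ENO1, PFKP and PFKFB3 decline; replicate 4 is the flattest line in most panels.

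The inner gates, midhigh against midlow dye, were compared to see whether the same genes separate cells nearer the middle. Without the block edgeR called 0 of 34 genes and 0 of 14592 genes in all (0%); at an unadjusted p under 0.05 there were 1 of the 34 (ENO1) and 1891 genes, and DESeq2 called 0 of the 34 and 122 genes. With the block 4 of 34 were called, against 10.8% of all genes, and in the directions of the outer gates. ALDOA was higher by log2 0.20 ± 0.051 (edgeR adjusted p = 0.018) and EPAS1 by 0.99 ± 0.23 (0.010). ENO1 was lower by -0.18 ± 0.057 (0.045) and LDHA by -0.19 ± 0.061 (0.048). EPAS1 in midhigh dye libraries was at 92.7, 51.5, 293 and 177 CPM, against 32.0, 21.9, 152 and 132 CPM in midlow dye.

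Set against ungated cells, the 2 ends of the range gave few calls. For high dye against ungated, 0 of the 34 genes were called without the block, 2 at an unadjusted p under 0.05 (LDHA, SLC2A3) and 0 by DESeq2; over all genes edgeR called 0.00685%. With the block LDHA was lower (log2 -0.27 ± 0.061, edgeR adjusted p = 0.014) and EPAS1 higher (1.02 ± 0.23, adjusted p = 0.014), 2 of 34 against 7.59%. For low dye against ungated, 0 of the 34 were called without the block, 3 at an unadjusted p under 0.05 (ALDOC, PFKFB3, PFKP) and 0 by DESeq2, with 0.0754% of all genes called. With the block 5 of 34 passed, against 10.8%: PFKFB3 was higher in low dye (0.27 ± 0.071), and VEGFA (-0.58 ± 0.15), CA12 (-0.36 ± 0.071), HIF1A (-0.23 ± 0.062) and EPAS1 (-0.89 ± 0.24) were lower. Both comparisons use the same ungated libraries. In those, EPAS1 stood at 68.5, 47.0, 140.3 and 168 CPM, between the low and the high dye library of its own replicate number in all 4 cases.

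For most of these genes, replicate numbers accounted for more of the variation than the sort groups did. Of the sum of squares of log2 CPM over the 20 sort libraries, a median of 52.8% lay between replicate numbers for the 34 genes and 21.3% between the 5 sort groups, where all genes had medians of 33.2% and 24.7%. More than 50% lay between replicate numbers in 21 of the 34 (61.8%), against 27.3% of all genes. On the hypoxia side this held for 9 of 10 genes and on the glycolysis side for 12 of 24. The rest, which includes counting noise, had a median of 21.7% for the 34 genes and 31.8% for all genes. Noise alone also puts a share between sort groups and between replicate numbers, and the shares were not corrected for it. The sets were not matched for level, and the part of level in the difference was not tested. These shares are descriptions over samples that the labels call biological replicates; whether the numbers mark days, passages or cultures is not given, and the source of the difference was not tested.

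NDRG1, a gene induced by low oxygen and differentiation, was the extreme, with 95.1% of its variation between replicate numbers. Its mean over the 5 sort groups was 48.3 ± 3.65 CPM in replicate 1 (SD, n = 5), 34.2 ± 2.69 in replicate 2, 30.2 ± 2.71 in replicate 3 and 20.5 ± 1.36 in replicate 4. All 5 libraries of replicate 1 lay above, and all 5 of replicate 4 below, those of every other number. HK2, the inducible hexokinase (85.0%), had 54.0 ± 0.505 and 54.0 ± 3.65 CPM in replicates 1 and 2 and 64.9 ± 3.54 and 74.2 ± 6.67 CPM in replicates 3 and 4. SLC2A1 (79.9%) was lowest in replicate 2, at 186 ± 24.9 CPM, and highest in replicate 3, at 318 ± 35.9 CPM. ENO2 (79.1%) was set apart in replicate 1 alone, at 36.5 ± 3.10 CPM against means of 26.6 to 27.5 CPM in the others. The hypoxia genes did not share an order: BNIP3 (77.6%) was highest in replicate 4, at 106 ± 4.59 CPM, where NDRG1 was lowest. EGLN1 (75.5%) was also highest in replicate 4. VEGFA was highest in replicate 1, at 79.3 CPM, and lowest in replicate 4, at 38.9 CPM, while EPAS1 was highest in replicate 3 and lowest in replicate 2, a 4.51-fold difference of means. PFKFB4 (70.6%) had 13.2 ± 2.30 CPM in replicate 2 and 5.65 ± 1.18 CPM in replicate 4.

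**Figure D3:**
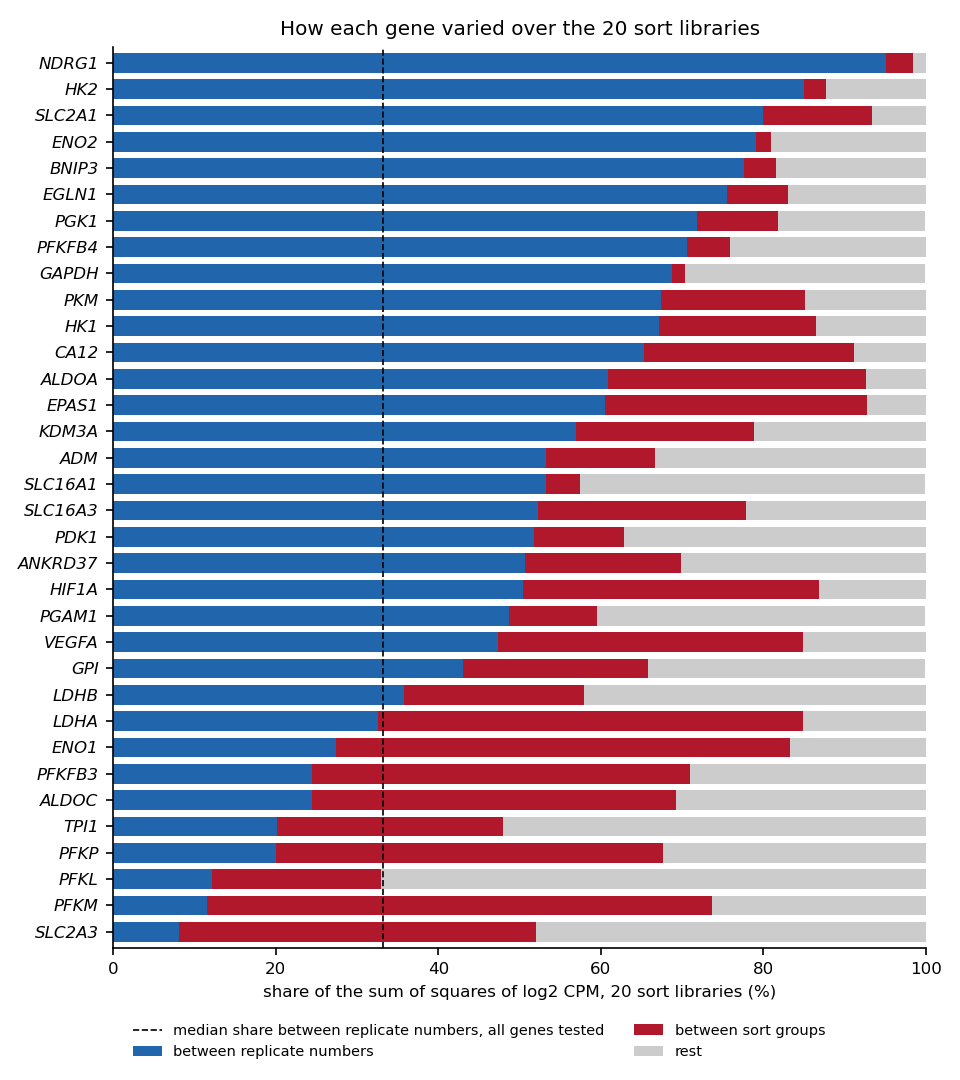
Share of each gene's variation (sum of squares of log2 CPM over 20 libraries, in percent) between replicate numbers (blue), between the 5 sort groups (red) and in the rest (grey), ordered by the blue share. The dashed line is the median blue share of all genes tested, 33.2%; NDRG1 stands at 95.1% and PFKM, with 62.1% between sort groups, near the other end.

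Of the 8 genes that edgeR called between the outer gates without the block, 7 had a larger share between sort groups than between replicate numbers. VEGFA did not (37.5% and 47.4%). That test counts the spread between replicate numbers as error, so such a split is partly set by the choice of genes. PFKM had 62.1% of its variation between sort groups, ENO1 55.9% and LDHA 52.3%, and these were the 3 of 34 genes above 50%. SLC2A3 had 8.11% between replicate numbers, the lowest value of the 34. EPAS1 and HIF1A had both: 60.5% and 50.4% between replicate numbers, 32.3% and 36.5% between sort groups.

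**Figure D4:**
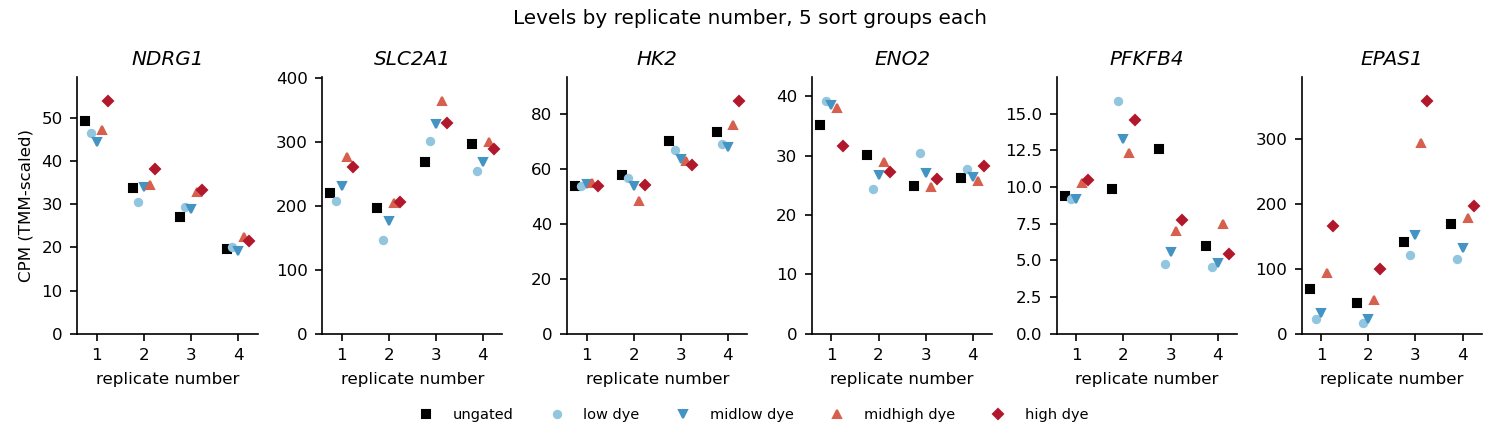
TMM-scaled CPM (vertical axes, from 0) of 6 genes by replicate number, with a marker for each of the 5 sort groups. NDRG1 is highest in replicate 1 (48.3 CPM on average) and lowest in replicate 4 (20.5 CPM) with little spread between gates, whereas in EPAS1 both the replicate number and the gate spread the points.

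Ratios of paired isoenzymes within a library do not depend on library scaling. The log2 ratio of LDHA to LDHB counts was 1.46 ± 0.11 in low dye (SD, n = 4), 1.45 ± 0.094 in midlow dye, 1.33 ± 0.11 in midhigh dye and 1.20 ± 0.15 in high dye cells, with 1.42 ± 0.096 in ungated cells. High dye values ran from 1.04 to 1.36 and low dye values from 1.34 to 1.60, so they met only at the edge, and high dye was lower in 4 of 4 pairs. The ratio of PFKFB4 to PFKFB3 was -3.41 ± 0.87 in low dye and -2.87 ± 0.67 in high dye. It was higher in high dye in 4 of 4 pairs, while the groups overlapped. ENO2 to ENO1 was -5.865, -6.632, -6.205 and -6.411 in low dye replicates 1 to 4 and -5.786, -6.215, -6.021 and -6.261 in high dye, higher in every pair with overlapping groups. HK2 to HK1 was -2.01 ± 0.25 and -2.09 ± 0.39, and SLC2A3 to SLC2A1 was -2.32 ± 0.49 and -2.29 ± 0.28, in low and high dye. ALDOC to ALDOA was -8.63 ± 0.35 and -8.13 ± 0.47, and SLC16A3 to SLC16A1 was 0.201 ± 0.174 and 0.288 ± 0.215, in the same order. These ratios were given no test.

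Other genes of the pathway, from lists chosen by name, were tested in the same fit of high against low dye. Of all genes in that comparison, 17.7% were called without the block and 37.2% with it. Of 33 further HIF targets that passed the filter, 12 were higher and 2 lower, with a median log2 fold change of 0.32 against 0.008 for all genes (with the block 22 higher and 3 lower). The largest rises among those called without the block were in MXI1 (1.53 ± 0.35), an antagonist of MYC, PPP1R3C (1.51 ± 0.32), which promotes glycogen storage, and ANGPTL4 (1.16 ± 0.19), a lipase inhibitor. DDIT4, an inhibitor of mTORC1, had a larger value (2.02 ± 0.77) but was called only with the block (edgeR adjusted p = 0.075 without it, 2.7e-06 with it). HILPDA, a lipid droplet protein, was the largest fall (-0.73 ± 0.20). Of 15 partners and regulators of HIF only ELOB, a subunit of the VHL complex, was called without the block (0.27 ± 0.083). With it 3 were higher and 2 lower: CITED2, a competitor of HIF for its coactivators (0.70 ± 0.26), and ARNT (0.17 ± 0.075) joined ELOB, and the chaperone HSP90AA1 (-0.38 ± 0.15) and the coactivator CREBBP (-0.16 ± 0.081) were lower, the values being those of the fit without the block. VHL itself was at -0.003 ± 0.097 and was called in neither fit.

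Of 22 further genes of glycolysis and pyruvate use, 4 were higher and 1 lower (8 and 2 with the block, among them PFKFB2 at 0.71 ± 0.33, higher with the block only). SLC16A4, a member of the monocarboxylate carrier family, rose by 1.101 ± 0.331, the pyruvate dehydrogenase kinase PDK2 by 0.79 ± 0.20, the p53 target TIGAR, which lowers glycolytic flux, by 0.48 ± 0.12, and PGAM5, a mitochondrial phosphatase and no glycolytic enzyme, fell (-0.37 ± 0.099). In the pentose phosphate pathway the lactonase PGLS (0.42 ± 0.087) was higher and the isomerase RPIA (-0.34 ± 0.094) lower; PGD and TALDO1 were higher with the block only. In the citrate cycle CS (-0.30 ± 0.067) and FH (-0.34 ± 0.10) were lower and none higher, of 20; with the block 5 were lower, and ACO1, IDH1 and MDH2 were higher. Of 7 genes of gluconeogenesis and glycogen, 2 were higher in the fit with the block only. Over all genes tested, 17.7% were called in either direction without the block and 37.2% with it. KDM1A, which encodes LSD1, was lower in high dye cells (-0.37 ± 0.097, edgeR adjusted p = 0.014). DOT1L (-0.25 ± 0.12) and TERT (0.57 ± 0.46) were not called without the block; with it their adjusted p was 0.036 and 0.0073.

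LSD1 inhibition was compared with the DMSO and no drug libraries together, 2 against 2. Without the block 0 of the 34 genes were called, against 0.114% of all genes (16 of 14002). At an unadjusted p under 0.05 there were 3 of the 34 (ENO2, SLC2A1 and ALDOC) and 950 genes, and DESeq2 called 116 genes, among them ENO2. ENO2 (chr12:6913745-6923698), the neuronal enolase, had 25.3 CPM in DMSO and 28.8 CPM in no drug, and 46.7 and 47.1 CPM in the LSD1 inhibition libraries. That is 1.73-fold by the means (log2 0.80 ± 0.12), with an adjusted p of 0.11 by edgeR and 0.0049 by DESeq2. Its log2 ratio to ENO1 in the same library was -6.32 in DMSO, -6.01 in no drug and -5.33 or -5.27 under LSD1 inhibition. ENO1 itself had 2023, 1854, 1884 and 1825 CPM in the same order. In the 4 fits that left out a library the log2 fold change of ENO2 was 0.704 to 0.901. Each of these fits leaves 1 library in a group, so no call is read from them.

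SLC2A1 had 246 and 278 CPM in the control libraries and 309.8 and 345 CPM under LSD1 inhibition (log2 0.33 ± 0.12, edgeR adjusted p = 0.64). PFKP went the same way, from 331 and 352 CPM to 392 and 400.0 CPM. ALDOC was lower, at 2.06 and 2.13 CPM against 3.85 and 2.86 CPM. In 14 of 34 genes the LSD1 inhibition and control libraries did not overlap, 6 higher and 8 lower, while 34% of all genes did so. With the replicate number as a block 11 of 34 were called, against 16% of all genes. SLC2A1, GPI, PFKP, ENO2 and VEGFA were higher, and HK2, ALDOC, PGK1, NDRG1, BNIP3 and KDM3A were lower. That fit has 1 residual degree of freedom per gene, and its pairing rests on 2 numbers. The controls of the 2 numbers also differ in label, DMSO and no drug, so vehicle and replicate cannot be told apart. On the hypoxia side the median log2 fold change without the block was -0.13, with EPAS1 at -0.015 ± 0.19 and HIF1A at -0.12 ± 0.11. The 20 replication and mitosis genes had a median of -0.19, and 15 were lower with the block. EPCAM, an epithelial marker, had 0.497 and 0.622 CPM in the controls and 2.82 and 2.96 CPM under LSD1 inhibition, and was higher with the block only (edgeR adjusted p = 0.099 without it, 4.8e-10 with it); its part in the values above was not tested.

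**Figure D5:**
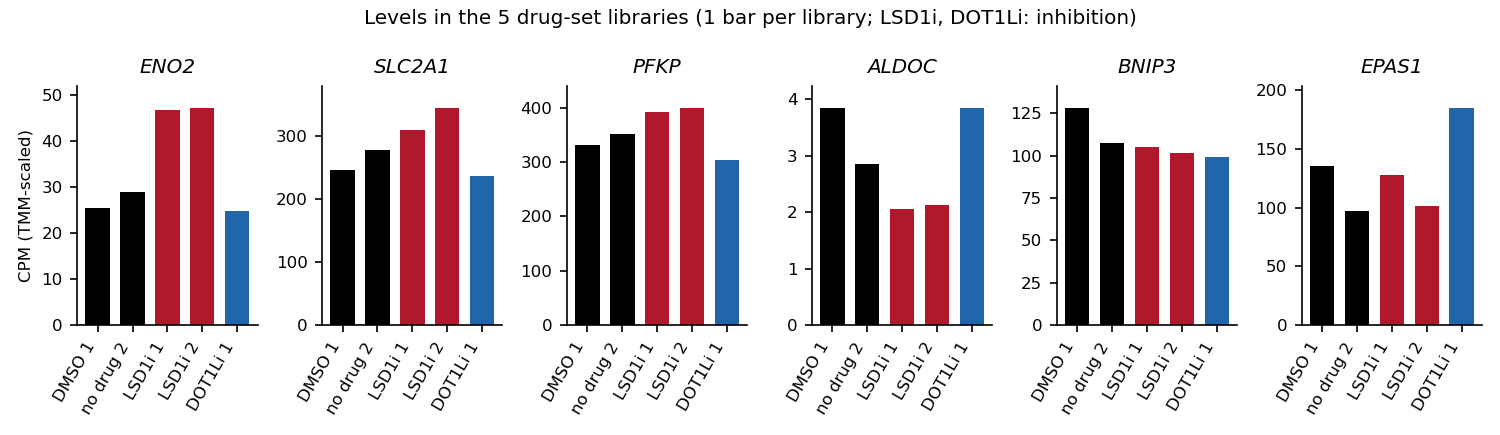
TMM-scaled CPM (vertical axes, from 0) of 6 genes in the 5 drug-set libraries: controls in black, LSD1 inhibition in red, DOT1L inhibition in blue, 1 library a bar and no error. ENO2 stands at 46.7 and 47.1 CPM in the red bars against 24.7 to 28.8 CPM in the other 3, and EPAS1 is highest in the blue bar.

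DOT1L inhibition had a single library and was set against DMSO with no test. None of the 34 genes lay past 1.5-fold, while 14.1% of all 14990 genes did. The largest log2 ratio was that of EPAS1, 0.45 (185 against 136 CPM; 95% interval 0.37 to 0.53, counting error only). The no drug library had 97.1 CPM, so that the 2 controls differed by as much (log2 -0.48). Against the mean of both controls the log2 ratio of EPAS1 was 0.69, past 1.5-fold. BNIP3 (-0.37), EGLN1 (-0.29) and PDK1 (-0.29) had the lowest ratios, and for these the no drug library was also below DMSO. GAPDH (0.20), PKM (0.19), ALDOA (0.22) and ENO1 (0.12) were slightly above DMSO. The median over the 34 genes was -0.001, against 0.005 for all genes.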

How the data were processed

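The deposited files hold raw counts per Ensembl gene; per the submitters' processing notes, the authors used STAR and HTSeq on hg38 (GRCh38), with versions, annotation and strand setting not given in the sources used here. Per the labels' protocols, poly(A) RNA was made into libraries with a NEBNext Ultra II RNA kit. Rows that name no gene were left out; unassigned reads were 4.33 to 7.72% without a feature and 7.14 to 7.62% ambiguous. Gene counts per library were 15015039 to 20030093, so 3 counts equal 0.15 to 0.2 CPM. Gene coordinates and exon lengths came from GENCODE 29, and symbols from a separate list of gene names matched by Ensembl gene.

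Counts of the sort set and the drug set were scaled separately by TMM, so levels are compared only within a set. Tests were edgeR 4.0.16 quasi-likelihood fits in R 4.3.3 after filterByExpr (minimum count 10, total 15), with all 20 sort libraries in 1 fit (16 gated libraries for the trend), and p-values adjusted by Benjamini-Hochberg over all genes tested. Standard errors were derived from the fold change and its F statistic. DESeq2 1.42.0, other scaling, no filter, fewer libraries and leaving out each library were alternatives. The DOT1L ratio used a prior count of 2. Shares of variation used log2(CPM + 0.5), and isoenzyme ratios added 0.5 counts. The edgeR fits were run on simulated counts in which 200 genes had known changes. For high against low dye, 77% of changes of log2 1 and 93% of log2 2 were called, with 5 false calls. For LSD1 inhibition it was 64% and 94%, with 25 false calls. Smaller changes and differences between replicate numbers were not simulated.

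Replicate numbers in the labels pair the sort samples: deviations from group means correlated at 0.15 to 0.698 in 40 of 40 pairs with the same number (mean 0.519). Over 120 pairs with different numbers the mean was -0.173. Deviations within a group sum to 0, so this second mean follows from the first and is no separate evidence. For the 34 genes tested, values or calls with the number as a block are therefore given where they change a call; for the other lists they are given as counts, with examples. Nothing says whether replicates are separate cultures beyond the label of biological replicate, so p-values measure the spread between these samples.

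The genes and all lists were chosen with earlier results of these data known. Values in every library are given for genes called between outer gates, inner gates or under LSD1 inhibition, for HIF1A and EPAS1, and for those that the block or a single library moves across the threshold, the rest by ranges and counts; genes with over 50% of variation between replicate numbers are named up to 6, further ones by their place. At most 4 called genes of each other list are named, besides MKI67, CDKN1A, VHL, ARNT, KDM1A, DOT1L and TERT. A result of the pentose phosphate list is not reported here.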

Additional observations from a re-analysis of the deposited data

Results flagged for a closer look

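In 6 of the 170 sets of 4 libraries examined (34 genes in 5 sort groups, 3.53%), the highest or lowest library lay apart from the other 3 by a larger part of the range than Dixon's 95% criterion allows; chance gives about 1 in 20. ALDOC in ungated replicate 3 had 3.52 CPM against 2.19 to 2.41 CPM. ANKRD37 in ungated replicate 1 had 0.86 CPM against 1.77 to 1.9 CPM. KDM3A in low dye replicate 1 had 45.8 CPM against 35.6 to 36.9 CPM, and ENO2 in midlow dye replicate 1 had 38.5 CPM against 26.4 to 27.1 CPM. Both of these genes had their highest mean in replicate 1 over the 5 sort groups. PDK1 in midhigh dye replicate 2 had 18.9 CPM against 19.8 to 20 CPM, and PGAM1 in high dye replicate 1 had 49.1 CPM against 59.2 to 60.4 CPM.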

How the results depend on the processing

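With the replicate number as a block, calls over all genes rose to 5433 between the outer gates, 1574 between the inner gates, 1107 for high dye and 1575 for low dye against ungated, 6317 for the trend and 2242 for LSD1 inhibition, and calls among the 34 genes to 15, 4, 2, 5, 18 and 11. Among the 34 genes the block ended no call and changed none besides those given above. A fit of only the compared libraries called 1497 genes and 2 of the 34 between the outer gates, and 0 genes for either gate against ungated. Without the filter on low counts there were 99 genes called between the inner gates, 25 and 177 for high and low dye against ungated, and 0 for LSD1 inhibition; DESeq2 called 122, 18, 188 and 116, and 1 of the 34 (ENO2) under LSD1 inhibition. Leaving out each library in turn gave 1255 to 2965 genes and 0 to 7 of the 34 between the outer gates, 0 to 6 genes for high and 0 to 36 for low dye against ungated, 2514 to 4149 genes and 6 to 11 of the 34 for the trend, and 108 to 331 genes and 0 to 1 of the 34 for LSD1 inhibition. Without the block, the log2 fold change of NDRG1 between the outer gates ranged from -0.035 (without high dye replicate 1) to 0.459 (without low dye replicate 1). NDRG1 was higher in 4 of 4 pairs, and leaving out 1 library breaks a pair. Against the mean of DMSO and no drug, 1 gene, EPAS1, lay past 1.5-fold under DOT1L inhibition (log2 0.69). The causes were not tested. Depth limits ALDOC and ANKRD37 most, and CA9, EGLN3 and PDK4 could not be tested.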
